A study of Rattus norvegicus with 8 samples.

Results

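Cytotoxic lymphocytes kill target cells with the contents of secretory granules. Perforin opens the membrane of the target, and granzymes, which are serine proteases, enter and cleave proteins that keep the cell alive. Natural killer (NK) cells of the liver hold such granules at rest, whereas T cells differ in their load between naive and effector states. The 7 genes described here were chosen by symbol. Gzma, Gzmb, Gzmk and Gzmm encode granzymes, Prf1 encodes perforin, Nkg7 encodes a granule membrane protein that takes part in degranulation, and Ctsw encodes cathepsin W, a cysteine protease of NK and cytotoxic T cells. All 7 were found among the 32754 genes of the files, each with 1 identifier (ENSRNOG00000010603, ENSRNOG00000049976, ENSRNOG00000010661, ENSRNOG00000030530, ENSRNOG00000000562, ENSRNOG00000017749 and ENSRNOG00000027096, in the order above).

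Immune cells were enriched from the livers of 4 male Han Wistar rats and sequenced on the Chromium 3′ system, which counts transcripts by unique molecular identifiers (UMIs). Negative control animals NC1 and NC2 were fed the choline-sufficient, L-amino acid-defined diet (CSAA), and positive control animals PC1 and PC2 the choline-deficient counterpart (CDAA). Each animal gave 1 library of fresh cells, without preservation, and 1 library of cells stored for 3 weeks by DMSO cryopreservation, so 8 libraries were compared. The age of the animals and the time on diet were not given in the sources used here, and every animal received an amino acid-defined diet. Fresh cells were processed before storage and preserved cells after it, so preservation and day of processing cannot be told apart.

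Libraries held 18338700 to 26471843 UMIs. A barcode with at least 500 UMIs was taken as a cell, which gave 34053 barcodes, 3673 to 4771 per library. A barcode was called NK when it had a UMI of Ncr1, an activating receptor of NK cells, and none of Cd3e, a T cell receptor subunit. It was called T in the opposite case. This gave 6323 NK, 7000 T and 18596 other barcodes, and 2134 barcodes with both genes were kept apart. Doublets were not removed. Barcodes of 1 to 100 UMIs, 237980 to 315326 per library, served as a measure of free RNA, which enters every droplet. Any pair of libraries shared 13 to 36 barcodes of at least 500 UMIs, against 18.3 to 29.7 expected by chance over the 28 pairs.

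The class labels were checked against markers that did not define them. Summed over 9 NK markers in the files, the level was 3086 to 3842 CPM (UMIs scaled to a total of 1000000 per class and library) in NK and 672 to 1492 in T barcodes. Summed over 9 T markers, it was 838 to 1610 CPM in T and 144 to 368 in NK barcodes. These sums include the defining genes. Without them, 5 of the 6 remaining tested T markers passed as lower in fresh NK than in fresh T barcodes, among them Cd3g (log2 fold change -1.86 ± 0.08, SE, edgeR adjusted p = 2.09e-12), and 5 of the 6 remaining NK markers passed as higher. Markers of another lineage were common: at least 2 of them were found in 37.2% to 86.9% of NK and 52.7% to 86.1% of T barcodes. The 6 B cell markers together stood at 47.5 to 180 CPM in NK barcodes and at 71.7 to 260 in free RNA. The 8 Kupffer cell markers stood higher, at 342 to 1836 CPM in NK barcodes, 408 to 2298 in T barcodes and 427 to 1741 in free RNA. The 9 T markers stood at 263 to 1119 CPM in free RNA, which overlaps their range in T barcodes. The 9 NK markers stood at 1111 to 2360 CPM in free RNA, below their range in NK barcodes. Free RNA, doublets and low expression were not separated.

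The promoters of 6 of the 7 genes were found in the set of RefSeq promoters used here (build GRCr8). Those of Gzma, Gzmb, Gzmk and Prf1 are shown as examples of promoters that hold 1 short sequence in common. The 250 bases before the transcription start are printed 5′ to 3′ on the strand of the gene. Capitals mark matches on either strand to a RUNX motif (TGTGGT, or ACCACA on the other strand), an AP-1 motif (TGANTCA), a CRE motif (TGACGTCA), an ETS motif (AGGAAG) or a T-box motif (GGTGTGA). The stretches are chr2:46485697-46485946 on the minus strand for Gzma, chr15:34462470-34462719 on the minus strand for Gzmb, chr2:46582016-46582265 on the minus strand for Gzmk and chr20:29788790-29789039 on the plus strand for Prf1.
Gzma: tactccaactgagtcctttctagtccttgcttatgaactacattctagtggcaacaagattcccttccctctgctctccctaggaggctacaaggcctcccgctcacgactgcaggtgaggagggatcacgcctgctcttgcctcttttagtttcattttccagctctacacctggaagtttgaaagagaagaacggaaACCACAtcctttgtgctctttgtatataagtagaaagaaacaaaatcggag
Gzmb: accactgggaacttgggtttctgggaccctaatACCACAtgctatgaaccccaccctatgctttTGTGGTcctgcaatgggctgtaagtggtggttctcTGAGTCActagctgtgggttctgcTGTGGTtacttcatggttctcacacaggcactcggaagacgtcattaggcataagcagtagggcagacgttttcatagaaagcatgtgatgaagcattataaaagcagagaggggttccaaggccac
Gzmk: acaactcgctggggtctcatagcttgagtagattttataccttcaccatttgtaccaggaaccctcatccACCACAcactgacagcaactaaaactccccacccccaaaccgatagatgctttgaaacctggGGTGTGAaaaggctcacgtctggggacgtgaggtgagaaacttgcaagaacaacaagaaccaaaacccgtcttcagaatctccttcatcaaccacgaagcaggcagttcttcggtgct
Prf1: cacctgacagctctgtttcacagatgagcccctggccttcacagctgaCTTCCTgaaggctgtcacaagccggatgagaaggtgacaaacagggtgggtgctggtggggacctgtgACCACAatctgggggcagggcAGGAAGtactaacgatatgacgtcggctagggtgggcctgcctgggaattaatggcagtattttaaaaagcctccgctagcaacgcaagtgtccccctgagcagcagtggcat
The RUNX letters were found in 6 of 6 promoters, those of Gzmm and Nkg7 included, and in 14.5% of 33469 rat promoters of the same length. Gzmb holds them 3 times and has the only AP-1 match. The T-box letters were found in Gzmk and Gzmm and in 3.22% of all promoters, and the ETS letters in Prf1 and Nkg7 and in 29.5% of all. The CRE letters were in none of the 6 and in 1.59% of all promoters. A match describes letters in this window and says nothing of binding in these cells.

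In NK barcodes the 7 genes made up 0.996% to 1.39% of all UMIs, against 0.232% to 0.549% in T barcodes and 0.335% to 0.726% in free RNA. Gzma, a granzyme that cleaves after lysine or arginine, stood at 2847, 4388, 2707 and 2949 CPM in fresh NK barcodes of NC1, NC2, PC1 and PC2. After DMSO it stood at 2509, 3583, 2322 and 2630. In T barcodes the fresh values were 752, 1630, 896 and 923, and the preserved values 315, 939, 734 and 1032. NK and T levels of Gzma did not overlap over the 8 libraries, and NC2 was the highest fresh library in both classes. The same lack of overlap held for Gzmb, Gzmk, Gzmm, Prf1 and Nkg7, but not for Ctsw. The share of all genes without overlap was not counted.

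Perforin, without which granzymes do not reach the target cytosol, had the largest fold change of the 7 genes between NK and T barcodes, in fresh and in preserved cells. Prf1 levels in NK barcodes were 1595, 1911, 1330 and 2256 CPM in fresh and 1520, 1776, 1189 and 1904 in preserved libraries, in the same order of animals. In T barcodes they were 399, 612, 375 and 604 in fresh and 189, 408, 323 and 599 in preserved libraries. The NK level was 3.12 to 8.03 times the T level within a library.

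The other granzymes followed the same order. Gzmb, which cleaves after aspartate and can activate caspases, had 443, 642, 403 and 638 CPM in fresh NK and 164, 215, 111 and 202 in fresh T barcodes. Gzmk, a trypsin-like granzyme, had 917, 1273, 1032 and 1818 in fresh NK barcodes and 351, 509, 375 and 593 in fresh T barcodes. Gzmm, which cleaves after methionine or leucine, lay at 2071 to 2957 in fresh NK and 863 to 1276 in fresh T barcodes. Nkg7 lay at 1998 to 2799 and 723 to 1088. Each of these 4 genes was higher in NK than in T barcodes of the same library in 8 of 8 libraries.

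**Figure D1:**
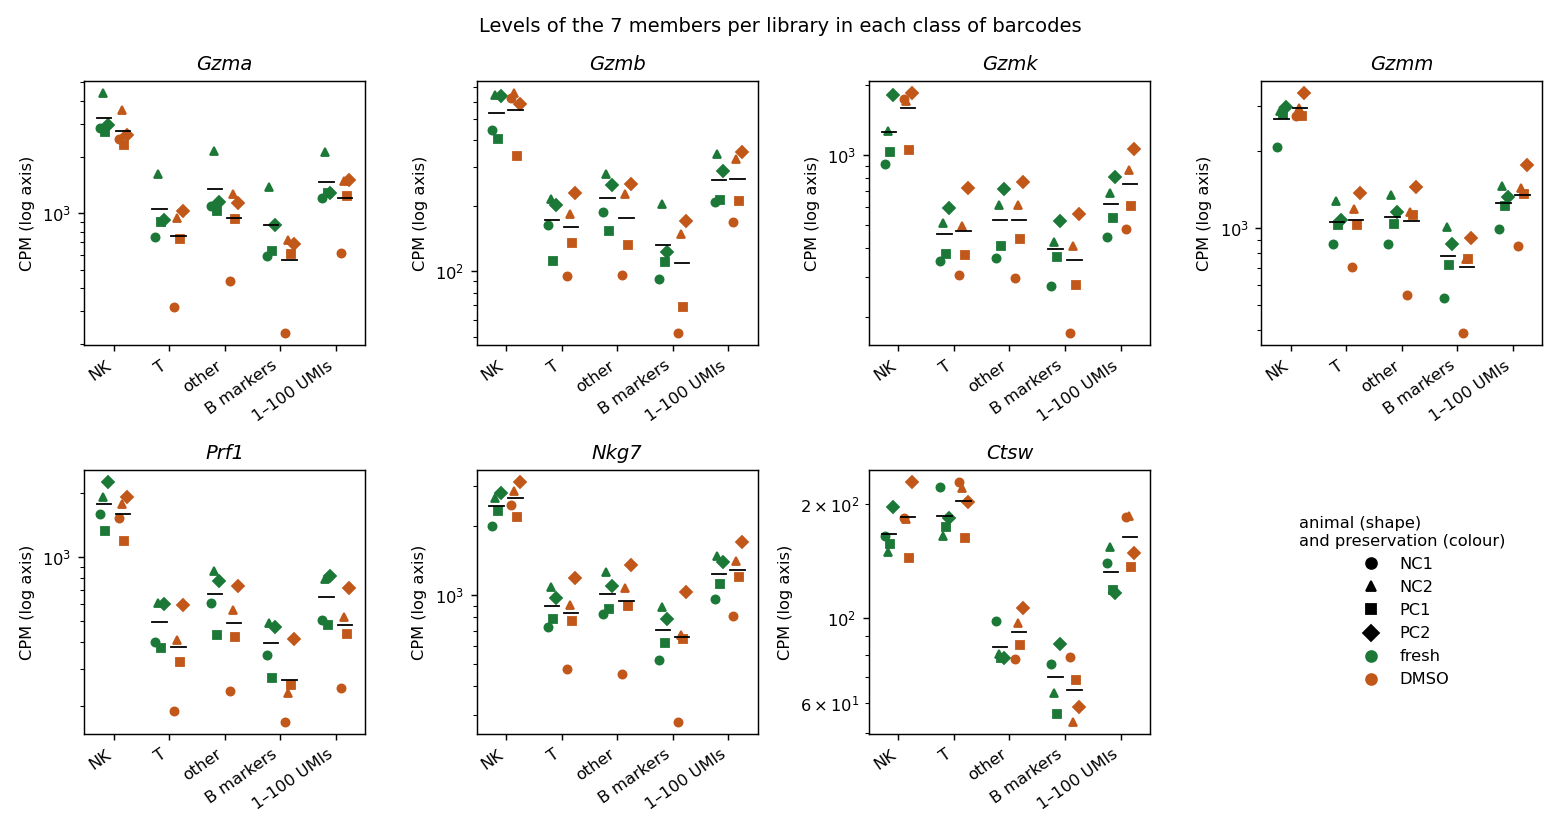
Levels of the 7 genes in CPM (log axis, scaled per gene) by class of barcodes; each point is 1 library, with the animal as shape and preservation as colour, and lines are means of 4 libraries. In 6 genes the NK points lie above all other classes of the same library, whereas for Ctsw the T points lie at or near the NK points.

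Between NK and T barcodes the question was how far granule transcripts separate both lymphocyte types. In fresh cells 6 of the 7 genes were called higher in NK barcodes by edgeR (change of at least 2-fold, adjusted p below 0.05), where 1.96% of the 9325 genes tested were called higher. Log2 fold changes were 1.82 ± 0.05 for Prf1, 1.64 ± 0.06 for Gzma, 1.61 ± 0.06 for Gzmb, 1.44 ± 0.05 for Nkg7, 1.43 ± 0.05 for Gzmk and 1.32 ± 0.05 for Gzmm (SE, 4 animals, highest adjusted p = 6.86e-13, for Gzmb and Gzmm). The median over the 7 genes was 1.44, and -0.004 over all genes. After DMSO the same 6 genes were called, where 2.09% of 9023 genes were called higher, with log2 fold changes from 1.49 ± 0.07 for Gzmm to 2.15 ± 0.13 for Prf1.

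Ctsw did not follow the other genes. It stood at 164, 149, 157 and 196 CPM in fresh NK barcodes and at 221, 164, 174 and 184 in fresh T barcodes. After DMSO it stood at 183, 182, 144 and 228 in NK and at 228, 219, 162 and 202 in T barcodes. NK and T levels overlapped, and the T level was the higher one in 6 of 8 libraries. The log2 fold change of NK against T was -0.18 ± 0.07 in fresh cells (edgeR adjusted p = 0.093) and -0.13 ± 0.07 after DMSO (adjusted p = 0.23), so no difference was called. This direction depended on how the classes were taken. With any of Cd3e, Cd3d or Cd3g as the T gene, NK and other barcodes had no UMI of these genes, so the NK class changed as well. Ctsw was then higher in NK barcodes in 8 of 8 libraries, by 0.51 on the log2 scale in fresh (edgeR adjusted p = 0.00459) and 0.55 in preserved cells (adjusted p = 0.000543).

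Against the other barcodes the same split was seen from the T side. NK barcodes were higher than other barcodes for 6 of 7 genes in fresh cells, where 2.86% of 9952 genes were called higher, and in preserved cells, where 3.68% of 9639 were. The log2 fold changes were 1.27 to 1.42 in fresh and 1.53 to 1.77 in preserved cells for these 6 genes. For Ctsw the log2 fold changes were 0.998 ± 0.07 (adjusted p = 3.93e-08) and 0.97 ± 0.07 (adjusted p = 8.38e-07), just under the 2-fold limit. T barcodes were called higher than other barcodes for Ctsw alone, by 1.15 ± 0.05 in fresh (adjusted p = 1.79e-12) and 1.15 ± 0.08 in preserved cells (adjusted p = 7.96e-09), where 0.91% of 10004 and 1.15% of 9612 genes were called higher. With Cd3e, Cd3d or Cd3g as the T gene this call was lost, at 0.59 in fresh (adjusted p = 3.88e-06) and 0.60 in preserved cells (adjusted p = 0.000554), both under 2-fold. The other 6 genes had fold changes from -0.41 ± 0.05 for Prf1 to -0.03 ± 0.03 for Gzmm in fresh T barcodes, and from -0.36 to 0.06 in preserved ones. Without the 2-fold limit, 6 of 7 genes, Ctsw included, had an edgeR adjusted p under 0.05 in fresh cells. In preserved cells 3 of 7 did, Ctsw included. The share of all genes at that limit is not given here. The other class can include NK cells in which no Ncr1 UMI was caught. With T barcodes of at least 2 markers of another lineage left out, and the other class whole, some of these changes reversed. Gzmm stood at 0.27 in fresh cells (edgeR adjusted p = 0.0052). In preserved cells Gzmk stood at 0.63 (adjusted p = 5.5e-05), Nkg7 at 0.41 (adjusted p = 0.0025) and Prf1 at 0.31 (adjusted p = 0.015). Gzma, Gzmk and Nkg7 in fresh cells and Gzma in preserved cells were positive but did not pass. With barcodes of the B cell marker set as the reference, a choice made after seeing the data, the log2 fold changes of these 6 genes were positive in T barcodes, 0.19 to 0.44 in fresh and 0.36 to 0.58 in preserved cells, all under 2-fold, and those of Gzmb (adjusted p = 0.0637) and Gzmk (adjusted p = 0.11) in fresh cells did not pass.

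**Figure D2:**
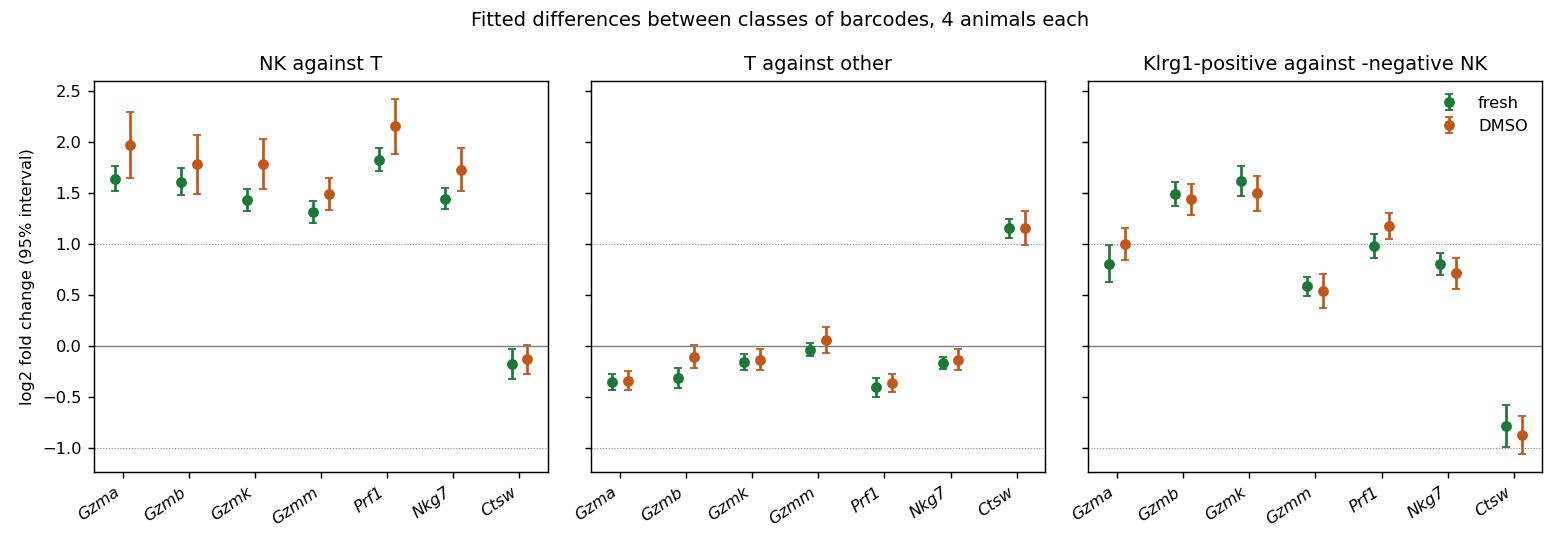
Log2 fold changes with 95% intervals from edgeR for the 7 genes, in fresh and preserved cells of 4 animals, for NK against T, T against other, and Klrg1-positive against Klrg1-negative NK barcodes; dotted lines mark 2-fold. Ctsw lies near 0 between NK and T, is the only gene above the dotted line in T against other, and is the only gene below 0 in the Klrg1 comparison.

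Free RNA carried all 7 genes. Gzma stood at 1202, 2135, 1288 and 1290 CPM in barcodes of 1 to 100 UMIs of fresh libraries, and at 613, 1480, 1236 and 1511 after DMSO. T barcodes had 0.514 to 0.763 times the Gzma level of free RNA of the same library, and NK barcodes 1.74 to 4.10 times. For Prf1 the ratios were 0.739 to 0.832 in T and 2.42 to 6.21 in NK barcodes. For the 6 genes other than Ctsw the T level lay below the free-RNA level in 8 of 8 libraries. Ctsw was again apart, with T barcodes at 1.07 to 1.59 times the free-RNA level, above it in 8 of 8 libraries. This too depended on the T gene. With Cd3e, Cd3d or Cd3g as the T gene, Ctsw in T barcodes stood at 105 to 174 CPM, against 117 to 186 in free RNA. The T level then lay below that of free RNA in most libraries. NK barcodes had 0.972 to 1.68 times the free-RNA level of Ctsw, above it in 5 of 8 libraries.

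B cells should lack granzymes, and barcodes with at least 2 B cell markers were set beside the T barcodes. They were taken from the other class, so any with a UMI of Ncr1 or Cd3e were left out. None of the Kupffer cell, monocyte, plasmacytoid dendritic cell, neutrophil and mast cell or basophil lists had as many markers with a UMI in them. The NK and T lists were not part of this choice. Summed NK markers stood at 337 to 945 CPM in preserved and 642 to 1104 in fresh B marker barcodes. In these 57 to 221 barcodes per library Gzma reached 0.374 to 0.673 times and Ctsw 0.287 to 0.733 times the level of free RNA. T barcodes stood at 1.06 to 1.502 times the B marker level for Gzma and at 1.12 to 1.77 times for Prf1, but at 2.15 to 4.11 times for Ctsw. Of NK barcodes, Gzma stood at 3.18 to 10.97 times the B marker level. Other marker sets stood higher than the B set. The median Gzma level over the 8 libraries was 658 CPM in the B and 764 in the plasmacytoid dendritic cell set. It was 979 in the monocyte, 1149 in the neutrophil and 1216 in the Kupffer cell set, and 909 in T barcodes. The median Ctsw level was 66.3 to 89.9 CPM in these sets and 193 in T barcodes. How much of the T level of the 6 genes comes from free RNA was not tested. The mix of the genes differed between classes by gene. For each 100 UMIs of Gzma, B marker barcodes had a median of 48.7 UMIs of Prf1, T barcodes 48.5, NK barcodes 53.6 and free RNA 38.6 over the 8 libraries. Of Ctsw the medians were 9.39, 21.0, 5.998 and 10.4.

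As a share of barcodes, depth was held equal by thinning each barcode to 500 UMIs. A Gzma UMI was then expected in 51.0% to 77.0% of NK, 13.4% to 48.5% of T and 10.9% to 44.0% of B marker barcodes. Prf1 was expected in 41.2% to 58.8% of NK, 9.01% to 24.9% of T and 8.08% to 20.6% of B marker barcodes. Over the 8 libraries the T shares thus overlapped those of B marker barcodes widely. Within a library, the T level in CPM lay above the B marker level in 8 of 8 libraries for each of the 7 genes. Ctsw was expected in 6.16% to 10.3% of NK, 6.83% to 11.7% of T and 2.45% to 3.89% of B marker barcodes, and here T and B marker shares did not overlap. Without thinning, 86.6% to 98.0% of NK, 62.1% to 97.2% of T and 44.7% to 93.8% of B marker barcodes had a Gzma UMI, at median depths of 3119 to 5274, 4156 to 5400 and 2338 to 3133 UMIs. At least 5 of the 7 genes were seen together in 71.9% to 94.3% of NK, 38.0% to 86.5% of T and 6.38% to 57.9% of B marker barcodes, at these unequal depths.

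**Figure D3:**
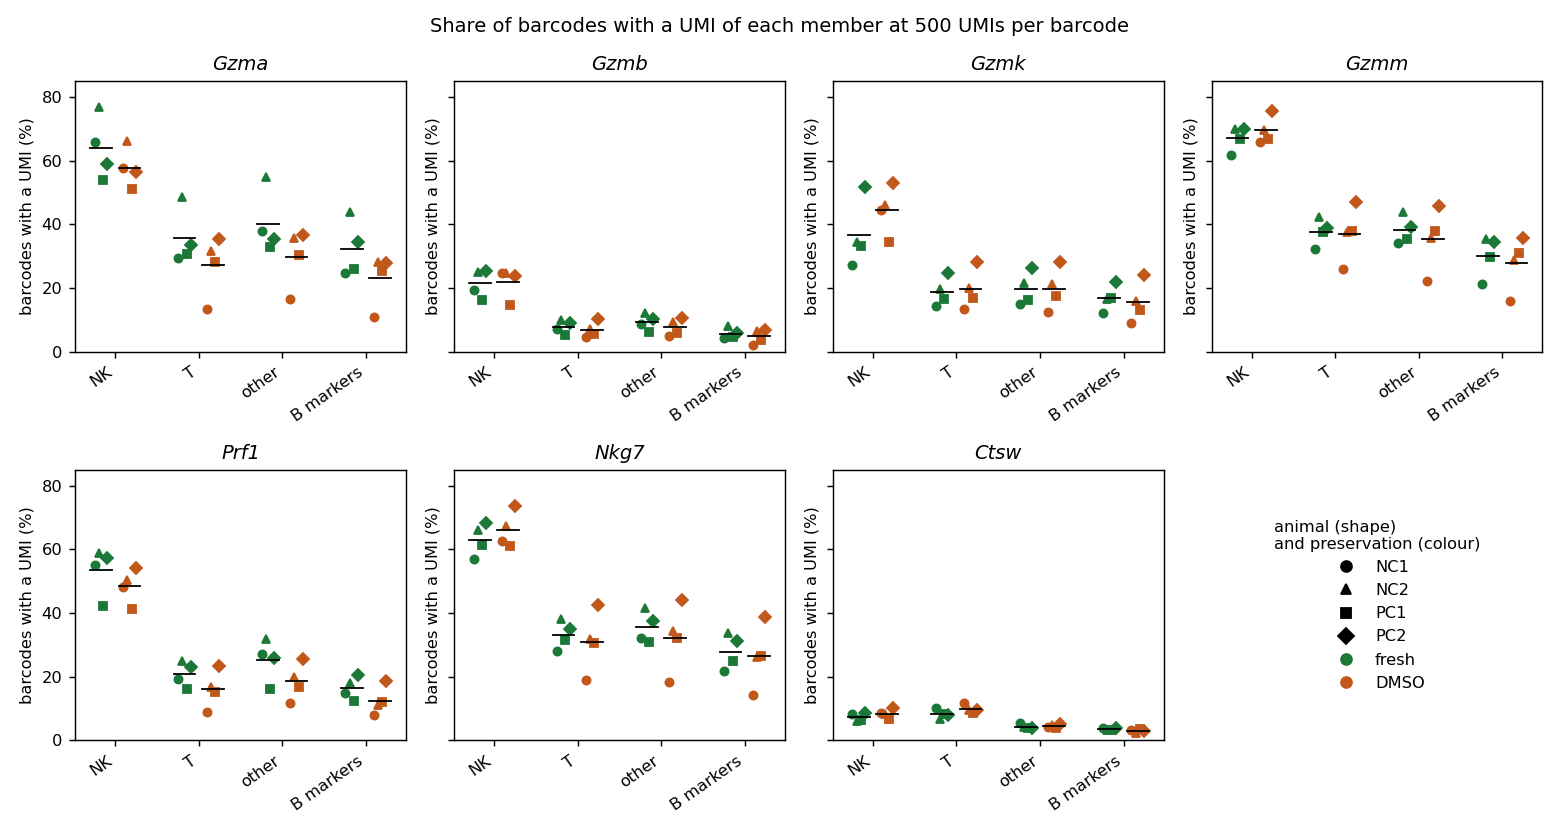
Share of barcodes (%) with at least 1 UMI of each gene expected at 500 UMIs per barcode, by class; each point is 1 library, with animals as shapes, preservation as colour and lines as means of 4 libraries. Taken over all libraries, the ranges of T and B marker points overlap for every gene but Ctsw. For Ctsw the T points (6.83% to 11.7%) lie above the B marker points (2.45% to 3.89%).

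Within NK barcodes the genes differed in how they split by Klrg1, a receptor of mature NK cells. Klrg1-positive barcodes numbered 74 to 480 per library, with median depths of 3716 to 5433 UMIs against 2813 to 5105 in Klrg1-negative ones. Gzmk stood at 2365, 2730, 2133 and 2729 CPM in fresh Klrg1-positive barcodes of NC1, NC2, PC1 and PC2, and at 611, 939, 713 and 1221 in the negative ones. Gzmb stood at 995, 1159, 806 and 1031 against 327, 523, 285 and 381. Over all 8 libraries the Klrg1-positive values of Gzmk, Gzmb, Prf1, Nkg7 and Gzmm lay above the Klrg1-negative values without overlap. Those of Ctsw lay below without overlap. For Gzma the ranges overlapped, at 3447 to 5026 and 1735 to 4243 CPM. The share of all genes without overlap was not counted.

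Gzmk and Gzmb were the 2 genes called higher in fresh Klrg1-positive barcodes, where 0.84% of 8338 genes were called higher, with log2 fold changes of 1.62 ± 0.07 (edgeR adjusted p = 4.28e-15) and 1.49 ± 0.06 (adjusted p = 2.79e-16). Prf1 (0.98 ± 0.06), Gzma (0.81 ± 0.09), Nkg7 (0.80 ± 0.05) and Gzmm (0.58 ± 0.05) were higher under 2-fold, with adjusted p-values under 0.05 (6.2% of all genes were higher at that limit). Ctsw was lower by -0.79 ± 0.10 (adjusted p = 2.72e-06), at 150, 93.4, 74.0 and 128 CPM in Klrg1-positive and 167, 162, 181 and 241 in Klrg1-negative barcodes. After DMSO, Gzmk, Gzmb, Prf1 (1.18 ± 0.06) and Gzma (1.001 ± 0.07) were called, where 0.87% of 6550 genes were called higher. DESeq2 called 3 of these 4, with Gzma at 0.988 and under the 2-fold limit. Ctsw differed by -0.87 ± 0.09 (adjusted p = 7.23e-07). In the comparison of CD8 and CD4 T barcodes, a CD8 barcode had a UMI of Cd8a or Cd8b and none of Cd4. A CD4 barcode was the opposite case. CD8 barcodes numbered 230 to 1092 and CD4 barcodes only 3 to 18 per library. No gene of the 7 was called in fresh cells (5 at an unadjusted p under 0.05, against 6.72% of all genes, none by DESeq2), where 0.126% of 5551 genes were called. Gzmk, Gzmm and Prf1 were called higher in CD8 barcodes after DMSO (0.35% of 6001 genes called higher). DESeq2 called 2 of them, without Prf1 (adjusted p = 0.124), and none was called with at least 10 UMIs in every sum or with no replicate block. Without NC1 none of the 7 was called, and without NC2 or without PC1 only 1 was.

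Preservation was tested next, with the animal as a block. In NK barcodes none of the 7 genes was called by edgeR (5 at an unadjusted p under 0.05, against 19.9% of all genes, none by DESeq2), where 0.896% of 9041 genes were called. Gzma was lower after DMSO in 4 of 4 animals, by a log2 fold change of -0.17 ± 0.06 (adjusted p = 0.11). Prf1 was also lower in 4 of 4, by -0.10 ± 0.06 (adjusted p = 0.43). Gzmk was higher in 4 of 4, by 0.40 ± 0.12 (adjusted p = 0.06), with NC1 moving from 917 to 1755 CPM and PC2 from 1818 to 1855. Gzmk levels of fresh and preserved NK barcodes overlapped. The Klrg1-positive share of NK barcodes, in which Gzmk is higher, moved in the same animals: it went from 15.2% to 29.2% in NC1, from 14.7% to 26.6% in NC2, from 19.9% to 20.3% in PC1 and from 37.6% to 38.9% in PC2. Within Klrg1-negative barcodes Gzmk went from 611 to 944 CPM in NC1, from 939 to 1187 in NC2, from 713 to 728 in PC1 and from 1221 to 1253 in PC2. Within Klrg1-positive barcodes it went from 2365 to 3555, from 2730 to 2872, from 2133 to 2151 and from 2729 to 2703. The part of the changed mix in the NK value was not tested.

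In T barcodes none of the 7 was called either (2 at an unadjusted p under 0.05, against 22.7% of all genes, none by DESeq2), where 0.543% of 9400 genes were called. The log2 fold change was -0.51 ± 0.15 for Gzma (edgeR adjusted p = 0.063) and -0.44 ± 0.12 for Prf1 (edgeR adjusted p = 0.047, under 2-fold). On adjusted p alone, 6.26% of all genes passed by edgeR. By DESeq2 none of the 7 had an adjusted p under 0.05. The changes differed between animals. Gzma in T barcodes went from 752 to 315 CPM in NC1 and from 1630 to 939 in NC2, but from 896 to 734 in PC1 and from 923 to 1032 in PC2. Free RNA moved alongside: its Gzma level after DMSO was 0.51 times the fresh level in NC1, 0.693 times in NC2, 0.96 times in PC1 and 1.17 times in PC2, and the share of NK among barcodes of at least 500 UMIs went from 15.3% to 6.89% in NC1, from 20.5% to 10.96% in NC2, from 20.5% to 17.3% in PC1 and from 26.0% to 27.6% in PC2. The part of free RNA in the T values was not tested.

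The difference between the changes in NK and in T barcodes was tested itself. It was called for none of the 7 genes (5 at an unadjusted p under 0.05, against 6.09% of all genes, none by DESeq2), where 0.0104% of 9657 genes were called. It was positive for 7 of 7 genes, from 0.02 ± 0.07 for Ctsw to 0.36 ± 0.13 for Gzmk. In other barcodes none was called (3 at an unadjusted p under 0.05, against 23.8% of all genes, none by DESeq2), where 0.604% of 10259 genes were called, and over all barcodes of at least 500 UMIs, where fewer cells of a type and less RNA per cell cannot be told apart, none was called (4 at an unadjusted p under 0.05, against 26.9% of all genes, none by DESeq2), where 0.8% of 11505 were.

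**Figure D4:**
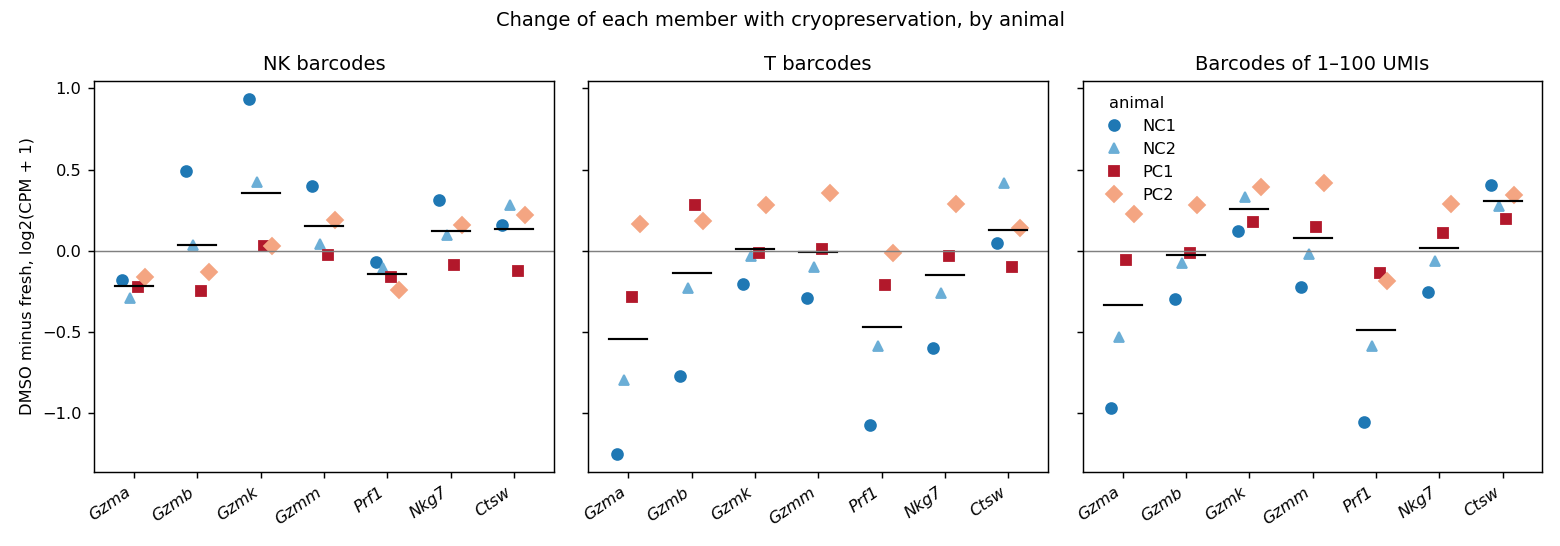
Difference of each gene between the preserved and the fresh library of an animal, in log2(CPM + 1), for NK barcodes, T barcodes and barcodes of 1 to 100 UMIs; points are animals and lines means of 4. For Gzma and Prf1, NC1 and NC2 lie lowest in T barcodes and in free RNA, and all 4 animals lie below 0 in NK barcodes.

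In free RNA itself none of the 7 genes was called after DMSO (4 at an unadjusted p under 0.05, against 20.4% of all genes, none by DESeq2), where 0.848% of 7901 genes were called. Without the 2-fold limit, 3 of 7 had an edgeR adjusted p under 0.05, against 6.21% of all genes. By DESeq2 only 1 of 7 did. The edgeR values follow. Prf1 was lower by -0.51 ± 0.11 (adjusted p = 0.014), and Gzmk (0.23 ± 0.06, adjusted p = 0.045) and Ctsw (0.28 ± 0.08, adjusted p = 0.045) were higher. The share of a gene's UMIs that lay in barcodes of 1 to 100 UMIs was higher after DMSO for 7 of 7 genes in 4 of 4 animals. Mean rises were 1.11 percentage points for Prf1 to 3.15 for Gzmb. Over all genes together the share was also higher in 4 of 4 animals, by 1.74 points. For Gzma it was 7.13% ± 1.01 in fresh and 9.80% ± 2.03 in preserved libraries (SD, n = 4, exact permutation test, two-sided, p = 0.125). For Prf1 it was 6.06% ± 0.477 and 7.17% ± 1.15, and over all genes 8.21% ± 0.524 and 9.96% ± 1.70 (both exact permutation p = 0.125). This is the smallest p that 16 sign changes of 4 animals can give.

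Compared with barcodes of at least 500 UMIs, fresh free RNA held less of 6 of 7 genes at an edgeR adjusted p under 0.05. Of all genes 9.37% were lower at that limit. By DESeq2 5 of 7 had an adjusted p under 0.05. None was called with the 2-fold limit by edgeR or DESeq2, where 1.16% of 10682 genes were called lower. Prf1 was the furthest apart, at -0.49 ± 0.04 in fresh (adjusted p = 1.12e-10) and -0.59 ± 0.07 in preserved libraries (adjusted p = 1.74e-05). In preserved libraries the other 6 had adjusted p-values of 0.07 or more, where 1.63% of 10217 genes were called lower.

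The shares of barcodes at 500 UMIs showed the same directions in NK barcodes. The Gzma share was lower in 4 of 4 animals, by -6.10 ± 3.86 percentage points, and the Prf1 share by -4.91 ± 3.42 (SD, n = 4, exact permutation test, two-sided, p = 0.125 for both). The Gzmk share was higher in 4 of 4, by 7.75 ± 8.02 percentage points (exact permutation test, p = 0.125), with 17.2 points in NC1 and 1.08 in PC2. The Ctsw share was also higher in 4 of 4, by 1.06 ± 0.99 percentage points (exact permutation test, p = 0.125). At 1000 UMIs and without thinning the Ctsw share was higher in 3 of 4. Without thinning, the Gzma share went from 96.6% to 93.7% (lower in 4 of 4), the Gzmk share from 81.4% to 85.8% (higher in 4 of 4) and the Prf1 share from 92.3% to 89.0% (lower in 2 of 4). In T barcodes the Gzma share was lower in 3 of 4 animals (-8.34 ± 9.45, exact permutation test, p = 0.25, n = 4), and the Ctsw share was higher in 4 of 4 (1.44 ± 1.05, exact permutation test, p = 0.125, n = 4), but in 3 of 4 at 1000 UMIs and in 2 of 4 without thinning.

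The diets were compared within fresh and within preserved cells, with 2 animals a group. In NK barcodes none of the 7 genes was called in fresh cells (none at an unadjusted p under 0.05, against 18.7% of all genes, none by DESeq2), where 1.16% of 9376 genes were called, or after DMSO (1 at an unadjusted p under 0.05, against 12.3% of all genes, none by DESeq2), where 1.41% of 8578 were. Gzmk was higher in CDAA than in CSAA fresh NK barcodes by 0.39 ± 0.28 (95% interval -0.27 to 1.04), and lower after DMSO by -0.31 ± 0.21 (-0.78 to 0.16). Intervals of this width include 2-fold differences for Gzmk in fresh cells. In T barcodes none was called in fresh (none at an unadjusted p under 0.05, against 17.5% of all genes, none by DESeq2) or preserved cells (1 at an unadjusted p under 0.05, against 15.6% of all genes, none by DESeq2), where 1.57% of 9588 and 1.85% of 9516 genes were called. Over all barcodes none was called in either condition (none at an unadjusted p under 0.05 in either, against 19.6% and 14.6% of all genes, none by DESeq2), where 0.994% of 11772 and 0.625% of 11364 genes were called.

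Whether the effect of DMSO differed between diets was tested as an interaction. None of the 7 genes was called in NK barcodes (2 at an unadjusted p under 0.05, against 5.53% of all genes, none by DESeq2), where 0% of 9041 genes were called, or in T barcodes (5 at an unadjusted p under 0.05, against 5.35% of all genes, none by DESeq2), where 0.0213% of 9400 were. In T barcodes the change of Gzma was more positive in CDAA than in CSAA animals by 0.92 ± 0.16 (adjusted p = 0.062), and that of Prf1 by 0.67 ± 0.15 (adjusted p = 0.18). Without NC2 or without PC1, 1 of the 7 genes was called in T barcodes.

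Other genes of the granule pathway were taken from lists. In fresh NK against T barcodes, 3 of 9 tested regulators of cytotoxicity were called higher and none lower, beside 1.96% of all genes called higher: the transcription factor Tbx21 (1.52 ± 0.07), the interleukin receptor chains Il2rb (1.36 ± 0.05) and Il18rap (1.23 ± 0.12). Of 3 tested death ligands and cytokines, Faslg (1.42 ± 0.07) and Tnfsf10 (1.11 ± 0.13) were called higher, and of the further granzymes Gzmbl3 (1.54 ± 0.13), a near relative of Gzmb whose reads may be shared with it. Their edgeR adjusted p-values were at most 4.02e-06. None of 11 genes of granule maturation and none of 11 of granule exocytosis was called in fresh cells. Serpinb9, an inhibitor of granzyme B, was nearest at 0.93 ± 0.09 (adjusted p = 3.5e-07), and was called after DMSO at 1.08 ± 0.07 (adjusted p = 3.65e-09).

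With preservation, 1 of 11 exocytosis genes was called in NK barcodes, beside 0.896% of all genes, the vesicle fusion protein Vamp8, which fell by 1.11 ± 0.14 on the log2 scale (edgeR adjusted p = 0.00017). In T barcodes 1 of 12 was called, beside 0.543% of all genes, Vamp7, another vesicle fusion protein, which fell by 1.04 ± 0.20 (adjusted p = 0.0083). Of the death ligands and cytokines Ifng, the gene of interferon gamma, rose by 3.46 ± 0.43 in T barcodes (adjusted p = 0.00076) and did not pass the expression filter in NK barcodes. None of 11 maturation genes and none of the regulators was called in either class. The transcriptional regulator Id2 was lower by -0.51 ± 0.11 in NK (adjusted p = 0.011) and by -0.36 ± 0.08 in T barcodes (adjusted p = 0.021), under 2-fold. Among the maturation genes with the smallest p, Calr was higher by 0.28 ± 0.07 in NK (edgeR adjusted p = 0.030) and 0.32 ± 0.06 in T barcodes (adjusted p = 0.011). In T barcodes Ctsl was higher by 0.52 ± 0.06 (edgeR adjusted p = 0.00076) and Lamp1 lower by -0.23 ± 0.06 (adjusted p = 0.045). On adjusted p alone, 6.26% of all genes passed in T barcodes. Markers of other cells also differed between fresh and preserved libraries. In T barcodes the Kupffer cell markers C1qb (-0.31 ± 0.06, edgeR adjusted p = 0.013) and C1qc (-0.33 ± 0.09, adjusted p = 0.039) were lower, under 2-fold. C1qa (-0.32 ± 0.09, adjusted p = 0.054) did not pass. The plasmacytoid dendritic cell marker Siglech was higher by 0.39 ± 0.06 (adjusted p = 0.0033). In NK barcodes C1qc (adjusted p = 0.59) and Siglech (adjusted p = 0.29) did not pass. The neutrophil list held 1 called gene in each class, S100a9 in NK (-1.13 ± 0.11, adjusted p = 1.63e-05) and Camp in T barcodes (-1.02 ± 0.21, adjusted p = 0.012), and erythroid markers together reached 949.7 CPM in T barcodes of 1 preserved library against 24.1 to 41.4 in fresh ones. Summed hepatocyte markers stood at 5.30 to 20.3 CPM in fresh and 2.02 to 3.73 in preserved NK barcodes. In T barcodes they stood at 6.08 to 18.4 and 1.40 to 4.70. These levels are near the floor, and up to 4 of the 6 markers had no UMI in a preserved library. Mast cell and basophil markers stood at 6.77 to 53.5 and 3.49 to 6.07 CPM in NK barcodes. In T barcodes they overlapped, at 7.52 to 39.9 and 1.36 to 10.7. The share of all genes without overlap between fresh and preserved libraries was not counted. The part of these markers in the values of the 7 genes was not tested.

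The likeness of patterns was described over 32 points, the NK, T, other and 1 to 100 UMI classes of 8 libraries, among 10089 genes, with Ncr1 and Cd3e left out. These points share libraries and depth, and no p is given. Among the 6 genes other than Ctsw, Pearson correlations of log2(CPM + 1) lay between 0.845 for Gzma with Gzmk and 0.982 for Gzmm with Nkg7. With Ctsw they lay between 0.104 for Gzma and 0.313 for Gzmm. The genes most like Nkg7 were the lectin-like receptor gene Klrb1b (0.988), Gzmm (0.982) and Klri1 (0.982). Gzmm was closest to Nkg7, Klrb1c (0.974) and Klrb1b (0.971), and Gzmb to Nkg7 (0.968), Klrb1b (0.966) and Faslg (0.963). Gzma was closest to Il2rb (0.967), Samd3 (0.962) and Kcnk1 (0.960), Gzmk to Focad (0.977), Nkg7 (0.964) and RGD1309350 (0.960), and Prf1 to Nkg7 (0.948), Adora2b (0.947) and Gzmb (0.944). Ctsw was closest to Cd2 (0.916), an adhesion receptor of T and NK cells, and to Lck (0.842), the kinase of the T cell receptor, and Lime1 (0.834). All these correlations used classes with Cd3e alone as the T gene. They were not computed with Cd3e, Cd3d or Cd3g as the T gene, where Ctsw reversed between NK and T barcodes.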

How the data were processed

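Transcripts of liver immune cells were counted in 8 libraries, a fresh and a DMSO-stored (3 weeks) one from each of 4 rats. The authors deposited raw UMI counts per gene and barcode, made with Cell Ranger 2.1.1 and bcl2fastq 2.17.1.14 (per the submitters' processing notes) on the Rnor6.0 genome with Ensembl release 86, with all 737280 barcodes kept and no cells selected. Barcodes with at least 500 UMIs were taken as cells, and those of 1 to 100 UMIs as free RNA. UMIs were summed per library and class. Library totals of 18338700 to 26471843 UMIs set the precision, and levels are CPM, UMIs scaled to 1000000 per class.

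Sums were tested with edgeR 4.0.16 (quasi-likelihood, TMM scaling, filterByExpr, Benjamini-Hochberg adjustment over all genes tested) in R 4.3.3, with the animal as a block between fresh and preserved libraries and the library as a block between classes. Calls needed at least a 2-fold change with an adjusted p below 0.05. DESeq2 1.42.0 was an alternative. The titles pair the libraries of an animal, and deviations of the same animal from the group means correlated at 0.449 to 0.751. Shares of barcodes were compared after thinning to 500 UMIs, by exact permutation of 16 sign changes. The fit was also tried on simulated counts without differences between animals, scored by adjusted p below 0.05 alone, without the 2-fold minimum. The numbers found and the false calls therefore do not describe the rule with the 2-fold minimum. For preservation in NK barcodes (9041 genes) edgeR found 88 of 100 genes changed by 1 on the log2 scale. It found 100 of 100 changed by 2, with 21 false calls. For NK against T in fresh cells (9325 genes) it found 88 and 100 of 100 with 13 false calls, and for diet in fresh NK barcodes (9376 genes) only 55 and 89 of 100 with 18 false calls.

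The 7 genes and the gene lists were chosen with earlier results of these data known. Named in the text are the 7 genes, the called genes of each pathway list or those with the smallest p, and the 3 genes most like each of the 7 among those with at least 200 UMIs. Promoters came from RefSeq (GRCr8), whose coordinates are not those of the files' build; that of Ctsw is not shown.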

Additional observations from a re-analysis of the deposited data

Results flagged for a closer look

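Of 84 groups of 4 libraries, 4 held a library apart from the others by Dixon's criterion, where chance gives about 1 in 20, or 4.2. NC2 was the high library for Gzma in fresh NK barcodes (4388 CPM, others 2707 to 2949), in fresh other barcodes (2145, others 1035 to 1151) and in fresh barcodes of 1 to 100 UMIs (2135, others 1202 to 1290). NC1 was the high library for Ctsw in fresh other barcodes (98.5 CPM, others 78.6 to 80.8).

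Some changes with DMSO had opposite directions in the diets, with both CSAA animals lower and both CDAA animals higher after storage. The difference between diets (CDAA minus CSAA, mean change in log2(CPM + 1)) in other barcodes was 0.24 for Gzmk, 0.67 for Gzmm and 0.72 for Nkg7. In barcodes of 1 to 100 UMIs it was 0.41 for Gzmm and 0.36 for Nkg7. These differences were not tested. For Gzmk in other barcodes NC2 moved by only -0.006, from 611 to 609 CPM. The same directions were seen in T barcodes, where the interaction was tested and not called, for Gzmb and Gzmm. Changes in NC1, NC2, PC1 and PC2 were -0.77, -0.23, 0.28 and 0.18 for Gzmb. Those of Gzmm were -0.29, -0.10, 0.009 and 0.35. In NK barcodes Gzmb moved the other way, by 0.49, 0.03, -0.25 and -0.13.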

How the results depend on the processing

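Counts below are genes called of 7. Without the 2-fold minimum they were 1 for preservation in T barcodes, 3 for preservation in barcodes of 1 to 100 UMIs, 6 in fresh and 3 in preserved cells for T against other barcodes, 7 and 7 for the Klrg1 comparison, and 6 and 1 for barcodes of 1 to 100 against at least 500 UMIs. With Cd3e, Cd3d or Cd3g as the T gene they were 0 and 0 for T against other barcodes and 1 for fresh CD8 against CD4 barcodes, and Ctsw reversed between NK and T (0.51 fresh, 0.55 preserved), as did Gzmm in preserved T against other barcodes (-0.17). A further setting dropped the NK and T barcodes with at least 2 markers of another lineage, 52.7% to 86.1% of T barcodes. The other class was left whole. In that setting the preserved Klrg1 count was 2. In that setting T against other barcodes reversed to 0.018 for Gzma, 0.13 for Gzmk, 0.27 for Gzmm and 0.014 for Nkg7 in fresh cells, and to 0.23 for Gzma, 0.63 for Gzmk, 0.31 for Prf1 and 0.41 for Nkg7 in preserved cells. With B marker barcodes as the reference, chosen after seeing the data, it reversed to 0.28 for Gzma, 0.31 for Gzmb, 0.19 for Gzmk, 0.44 for Gzmm, 0.29 for Prf1 and 0.33 for Nkg7 in fresh cells, and to 0.36 for Gzma, 0.54 for Gzmb, 0.41 for Gzmk, 0.44 for Prf1 and 0.36 for Nkg7 in preserved cells. The causes were not tested.

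For preserved CD8 against CD4 barcodes the count was 5 with no filter, 0 with at least 10 UMIs in every sum and 0 with no replicate block; the block changed no other count by over 1.5 times. Leaving out 1 animal gave 0 to 2 in fresh (2 without PC2) and 0 to 2 in preserved CD8 against CD4 barcodes, 0 to 1 for diet over all preserved barcodes and 0 to 3 for diet in preserved T barcodes (both highest without NC2, which leaves 1 CSAA library, assumed to vary like the others), and 0 to 1 for preservation by diet in T barcodes (1 without NC2 or PC1). Of 21 pairs of gene and class, 5 had shares moving one way in 4 of 4 animals, and 6 to 10 when 1 animal was left out (8 without NC1, 10 without PC2). Of 2747 values under 18 alternatives, 22 reversed with an adjusted p under 0.05 on either side, and 102 others changed sign with neither side past it, none larger than 0.431 on the log2 scale. Classes by at least 2 UMIs could not be run for CD8 against CD4 barcodes.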
